A study of Mus musculus with 2 samples.

Results

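Retinoic acid, made from vitamin A, acts by binding retinoic acid receptors in the nucleus. The 10 genes described here encode the parts of this route that receive, carry and destroy the signal: the retinoic acid receptors Rara, Rarb and Rarg, the rexinoid receptors Rxra, Rxrb and Rxrg, the cellular retinoic acid-binding proteins Crabp1 and Crabp2, and the oxidizing enzymes Cyp26a1 and Cyp26b1. They were chosen by gene symbol for these roles, and all 10 were found among the 24346 gene symbols listed for each library. RNA-seq was performed on whole omentum, the abdominal fat that carries the lymphoid clusters called milky spots, to see which transcripts change once fibroblastic reticular cells (FRCs) positive for Aldh1a2 are ablated. These stromal cells make a retinaldehyde dehydrogenase and have an active Postn promoter. The data comprised 1 library of WT omentum and 1 of Postn-DTR omentum, the latter from heterozygotes made in C57BL/6 zygotes with a mutated diphtheria toxin receptor cassette in the first coding exon of 1 Postn allele. Both groups received diphtheria toxin (DT) by intraperitoneal injection and were taken 5 days later. Age, and whether a library was from a single mouse or a pool, were not given in the sources used here. Postn is also used by mesenchymal cells outside the omentum, so effects of the toxin beyond omental FRCs are possible.

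An RAR pairs with an RXR on DNA elements called retinoic acid response elements, where the pair represses without ligand and activates with it. The classic element is a direct repeat of a 6-base unit spaced by 5 bases, known as DR5. CRABPs carry retinoic acid in the cytoplasm, CRABP2 towards the nuclear receptors. CYP26 enzymes are cytochrome P450s that break retinoic acid down. Rarb and Cyp26a1 are textbook direct targets of the pathway that they belong to, so each is both a component and a readout. RXRs also pair with many other nuclear receptors, including PPARγ, the master regulator of adipocytes.

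The promoter sequences are shown because, of the 10 genes, the 2 with the greatest change shared a DR5. Both are textbook targets of the pathway, and the motifs were chosen with earlier results of these data known. The match is therefore not an independent finding and does not account for the changes. RefSeq promoter windows (GRCm38.p6, 250 bases before to 50 after each start) were available for 9 of the 10 genes, 16 windows in all. DR5 repeats were searched on both strands with 4 repeat units in any pair, namely AGGTCA and its variant AGTTCA, as well as GGGTCA and its variant GGTTCA. A DR5 was found in the windows of Rarb and Cyp26a1 and in none of the other 7 genes with a window. These letters, read along the strand of the repeat with the repeat units in capitals and 6 flanking bases a side, were as follows.

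Rarb DR5: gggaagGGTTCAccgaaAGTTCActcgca

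Cyp26a1 DR5: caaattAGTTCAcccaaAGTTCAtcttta

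The Rarb stretch is at chr14:16575507-16575535 and reads along the minus strand, as the gene does. Its repeat ran from 53 to 37 bases before the RefSeq start. GENCODE M21 places those bases inside the opening exon of 2 Rarb transcripts that start further upstream, and inside an intron of 2 longer ones. The Cyp26a1 stretch is at chr19:37697770-37697798. Its repeat reads along the minus strand, opposite to the gene, ran from 32 to 16 bases before the RefSeq start, and overlapped no annotated gene. The 240 bases that lead up to the GENCODE start of Cyp26a1 (chr19:37697558-37697797, plus strand) are given with the same repeat in capitals, where it appears as the reverse complement.

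Cyp26a1 upstream: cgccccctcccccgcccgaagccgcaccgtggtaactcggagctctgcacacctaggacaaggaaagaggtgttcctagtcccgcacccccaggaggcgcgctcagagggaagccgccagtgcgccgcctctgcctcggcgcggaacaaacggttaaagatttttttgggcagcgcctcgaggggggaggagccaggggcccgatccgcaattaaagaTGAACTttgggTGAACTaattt

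The DR5 was rare among promoters. It was found in 32 of 32851 windows (0.0974%), and in 31 of 27025 genes with a window. Of those genes 6 were expressed at the minimum used here. In order of change they were Cyp26a1, Rarb, Ppbp (FPKM 0.684 in WT and 1.32 in Postn-DTR), Blvrb (78.6 and 99.96), Cfap45 (1.35 and 1.49) and Tnfsf13b (5.97 and 6.30). Direct repeats of the same units spaced by 1 base were in 0.222% of windows and those spaced by 2 bases in 0.268%, and neither was in a window of the 10 genes. A match is a description of letters and does not show that a receptor was bound.

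Expression was deposited as FPKM, which corrects fragment counts for the length of the transcript and the size of the library, so levels of different genes can be compared. With 1 library per genotype there was no spread between replicates, and no test of the genotypes was possible, so every difference lacks a replicate check. The change of a gene is the value of log2(FPKM + 1) in Postn-DTR less that in WT. This scale shrinks the change of genes with low FPKM. A change was called when it reached 2-fold on that scale. Ratios quoted for single genes are of FPKM without the pseudocount. The steps between low FPKM values gave an estimated depth of 23300000 fragments in the WT library against 24100000 in the other. Reads behind a value were estimated from these depths and the shortest RefSeq transcript, and the 95% intervals given (exact Poisson for reads, exact binomial for ratios) cover counting error only. In whole tissue, fewer cells of a type and less RNA per cell cannot be told apart.

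A mean FPKM of at least 1 was reached by 13127 genes, of which 8 were among the 10. Of the 8, Cyp26a1 was at least 2-fold higher in Postn-DTR and none was at least 2-fold lower. Over all genes compared, 3.88% were higher and 3.12% lower by this rule. The counts of each gene list below are to be read beside these shares. The other 7 stayed within 2-fold, and Crabp1 and Crabp2 were under the minimum. The median change of the 8 was 0.31, against 0.02 for all genes compared. Of the 8, 7 were above 0 and 1 was below, while 51.9% of all genes compared were above 0. Cyp26a1, among those above 0, passed the minimum only through its Postn-DTR value. However, Rara, Rxra and Rxrb turned below 0 with acinar genes removed and equal totals. The median of all genes compared was -0.27 under that setting. Summed FPKM of all genes was 542190 in WT and 671882 in Postn-DTR. The acinar markers removed summed to only 5480 and 16.8, so this setting mainly made these totals equal. Genes with a WT FPKM under 1 that passed the minimum were at least 2-fold higher in 43.6% of cases.

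**Figure D1:**
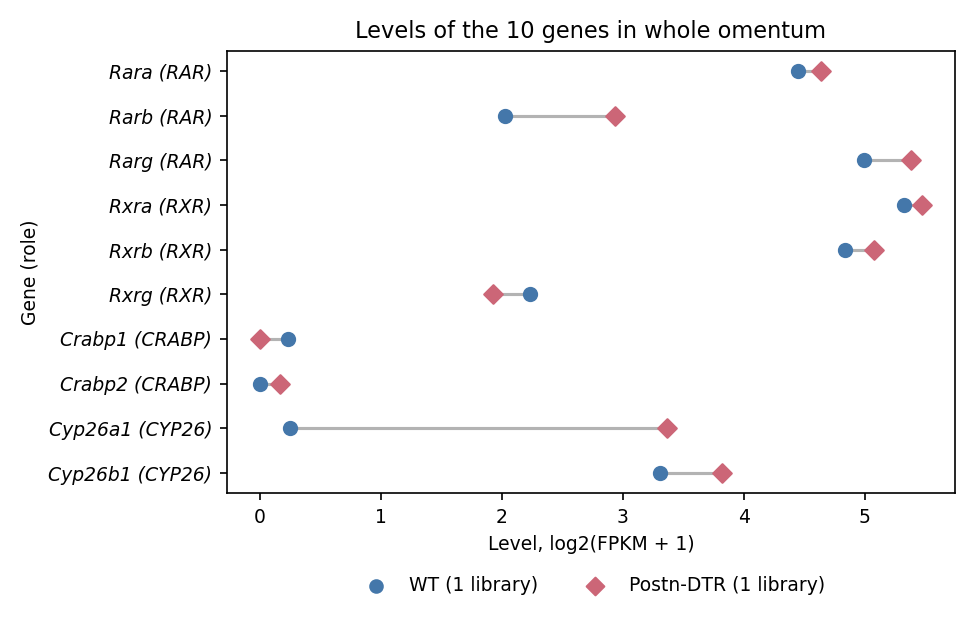
Level of each gene as log2(FPKM + 1) in the WT library (blue circles) and the Postn-DTR library (red diamonds), with a grey line joining both. Cyp26a1 moved furthest, from 0.190 to 9.33 FPKM, the 4 abundant receptors Rara, Rarg, Rxra and Rxrb stayed at 20.8 FPKM or more in both libraries, and both Crabp genes were near 0.

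Of the CYP26 enzymes, Cyp26a1 (ENSMUSG00000024987, chromosome 19, 37697798 to 37701536, plus strand, GRCm38) was almost silent in WT, at 0.190 FPKM, and reached 9.33 FPKM in Postn-DTR. It encodes the CYP26 enzyme that cells switch on most strongly in response to retinoic acid. In estimated reads this was 7 in WT (95% interval 2.81 to 14.4) and 357 in Postn-DTR (321 to 396). The ratio was 49.0, with a counting interval from 23.7 to 124, and the change was 3.12. Only 45 of the 13127 genes compared (0.343%) had a greater increase on the log2(FPKM + 1) scale.

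Cyp26a1 passed the expression minimum only through its Postn-DTR value. A gene with its WT level needed a change of at least 1.24 to pass. The filter thus fixed the call and set a lower bound on its size, and the rank among genes compared is not independent of it. Without that filter, 1490 genes had a WT FPKM within 2-fold of that of Cyp26a1, and 1.81% of them were at least 2-fold higher in Postn-DTR. Their median FPKM in Postn-DTR was 0.155. Just 3 had a higher FPKM there than Cyp26a1, named here after their values were seen: Saa1, an acute-phase protein, at 677.3, Trem1, a receptor of neutrophils and monocytes, at 11.8, and Car6, a secreted carbonic anhydrase, at 10.9.

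Cyp26b1 (ENSMUSG00000063415, chromosome 6, 84571414 to 84593908, minus strand), the family member typical of stromal cells, was at 8.87 FPKM in WT against 13.1 in Postn-DTR. The ratio was 1.48 (counting interval 1.35 to 1.62) and the change 0.52, under the 2-fold threshold, with 11.98% of genes showing a greater increase. In WT, Cyp26b1 made up 97.9% of the summed FPKM of both enzymes and Cyp26a1 2.1%. In Postn-DTR these shares were 58.4% and 41.6%. The level of Cyp26b1 was thus 46.6 times that of Cyp26a1 in WT and 1.41 times in Postn-DTR, and the sum of both went from 9.06 to 22.4 FPKM. The remaining family member, Cyp26c1, next to Cyp26a1 on chromosome 19, was near 0 in both libraries at 0.0317 and 0.153 FPKM.

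**Figure D2:**
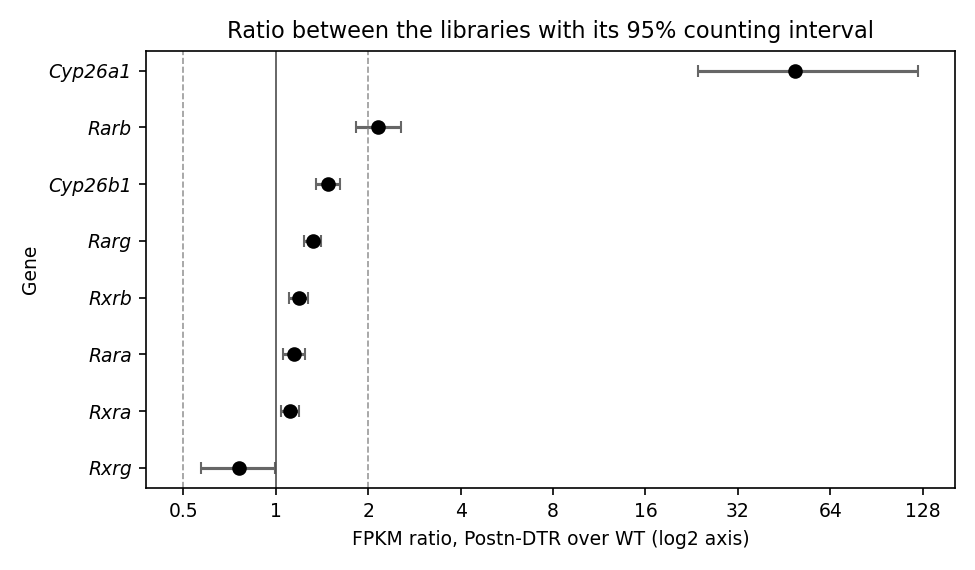
FPKM ratio of Postn-DTR to WT for the 8 genes above the minimum, on a log2 axis, with bars for the 95% counting interval, a solid line at 1 and dashed lines at 0.5 and 2. Cyp26a1 stands at 49.0, Rarb at 2.15 with an interval that crosses 2, and the other 6 lie between 0.758 and 1.48.

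Among the RARs, Rarb (ENSMUSG00000017491, chromosome 14, 16430839 to 16819156, minus strand) was lowest in level and highest in change. Its promoter carries the DR5 shown above. Rarb was at 3.08 FPKM in WT against 6.63 in Postn-DTR, or 208 and 464 estimated reads. The ratio was 2.15, with a counting interval of 1.83 to 2.55, and the log2(FPKM + 1) change was 0.90, just under the threshold. Of all genes compared, 4.69% had a greater increase. With a pseudocount of 0.1 the change was 1.08 and Rarb was called, and with acinar genes removed and equal totals it was 0.64. Exons of Rarb overlap those of Top2b, on the opposite strand, over 1793 bases. Whether counting used strand was not given in the sources used here. Top2b, a DNA topoisomerase, was at 22.2 FPKM in WT against 19.3 in Postn-DTR. How much of the Rarb value came from the overlap was not tested.

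Rarg (ENSMUSG00000001288, chromosome 15, 102234938 to 102257517, minus strand) was the most abundant RAR, with 30.8 FPKM in WT against 40.7 in Postn-DTR. The ratio was 1.32 (counting interval 1.24 to 1.40) and the change 0.39. Its change stayed above 0 under all 7 alternative settings, from 0.07 to 0.40. Rara (ENSMUSG00000037992, chromosome 11, 98927818 to 98974942, plus strand), the most widely expressed RAR across tissues, was at 20.8 and 23.9 FPKM. Its change of 0.19 turned to -0.12 when acinar genes were removed and library totals made equal. That setting moved the median of all genes compared to -0.27, so the sign of the Rara change depended on the scaling.

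The order of the RARs was the same in both libraries, Rarg above Rara above Rarb. Rarg made up 56.4% of summed RAR FPKM in WT and 57.2% in Postn-DTR, Rara 38.0% and 33.5%, and Rarb 5.63% and 9.32%. The sum of the 3 was 54.7 FPKM in WT and 71.2 in Postn-DTR. Of the difference, Rarg carried the most FPKM although its ratio was below that of Rarb.

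Of the RXRs, Rxra (ENSMUSG00000015846, chromosome 2, 27676440 to 27762957, plus strand), the main RXR of liver, skin and heart, was the most abundant receptor of the 6, with 39.0 FPKM in WT against 43.3 in Postn-DTR. Rxrb (ENSMUSG00000039656, chromosome 17, 34031812 to 34038399, plus strand), which is expressed almost everywhere, was at 27.5 and 32.7 FPKM. Their changes of 0.15 and 0.24 turned to -0.17 and -0.07 with acinar genes removed and equal totals. The median of all genes compared was -0.27 under that setting, so the sign of both changes depended on the scaling. Rxrg (ENSMUSG00000015843, chromosome 1, 167598384 to 167639623, plus strand), known from muscle and brain, was at 3.69 FPKM in WT against 2.80 in Postn-DTR, or 123 and 96 estimated reads. Its ratio of 0.758 had a counting interval from 0.572 to 0.994. The change was -0.30 and stayed below 0 under all 6 settings that gave a value, from -0.55 to -0.16.

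RXR composition was almost the same in both libraries. Rxra made up 55.5% of summed RXR FPKM in WT and 54.9% in Postn-DTR, Rxrb 39.2% and 41.5%, and Rxrg 5.26% and 3.55%. Summed RXR FPKM was 1.28 times summed RAR FPKM in WT and 1.11 times in Postn-DTR. RXRs, the common partners, were listed at a higher level than the RARs combined in both libraries.

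**Figure D3:**
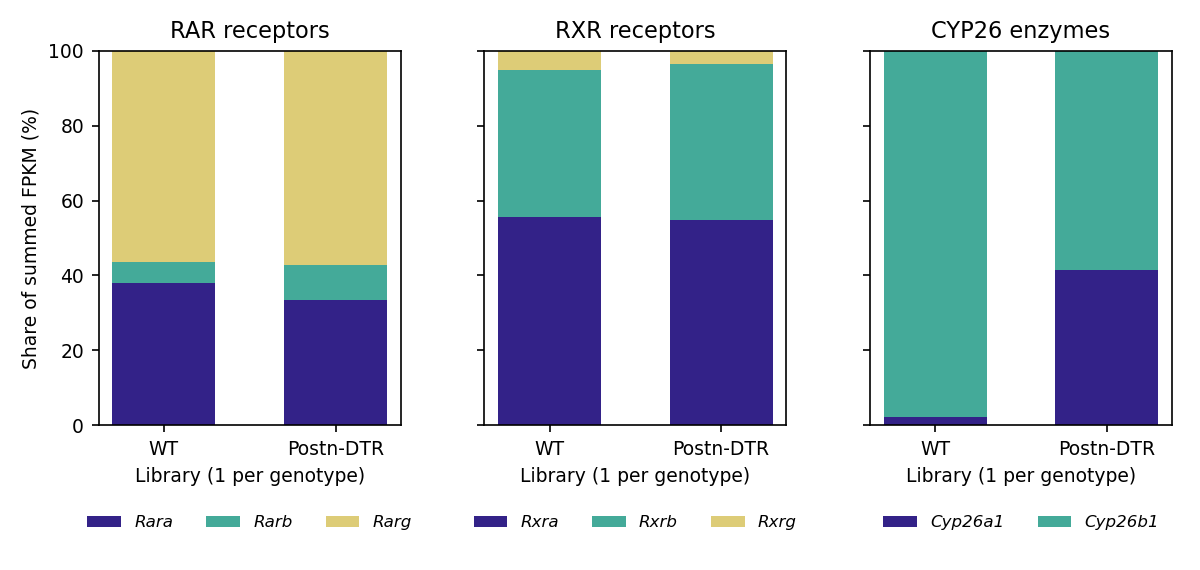
Share of the summed FPKM taken by each RAR, RXR and CYP26 gene in the WT and Postn-DTR libraries, as stacked bars from 0 to 100%. RAR and RXR shares each moved by less than 5 percentage points, whereas Cyp26a1 went from 2.1% to 41.6% of the CYP26 sum.

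The binding proteins were hardly detected. Crabp1 (ENSMUSG00000032291, chromosome 9, 54764748 to 54773110, plus strand) was at 0.177 FPKM in WT and listed at 0 in Postn-DTR. Crabp2 (ENSMUSG00000004885, chromosome 3, 87948666 to 87953376, plus strand) was listed at 0 in WT and at 0.119 FPKM in Postn-DTR. Each value above 0 rested on about 2 estimated reads, under the floor of 3 reads used here, so no fold is given and no difference was detectable at this depth. Of the 11 other intracellular lipid-binding protein genes examined, 6 reached the minimum, 2 of these were at least 2-fold higher and 1 lower. The shares of all genes compared were 3.88% and 3.12%, and a list of 6 is too short to set against them. Fabp1, Fabp2, Fabp6 and Pmp2 were listed at 0 in both libraries. Fabp4, the main fatty acid-binding protein of adipocytes, was at 4879 FPKM in WT and 6519 in Postn-DTR. Fabp5, which can also carry retinoic acid and delivers it to PPARδ, was 2.31-fold lower (199.6 and 86.3). Fabp7, known from brain, was 8.68-fold higher (3.22 and 27.9) and Fabp3, the heart and muscle form, 3.36-fold higher (2.25 and 7.58), a call that was lost with a pseudocount of 5 (change 0.79).

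**Figure D4:**
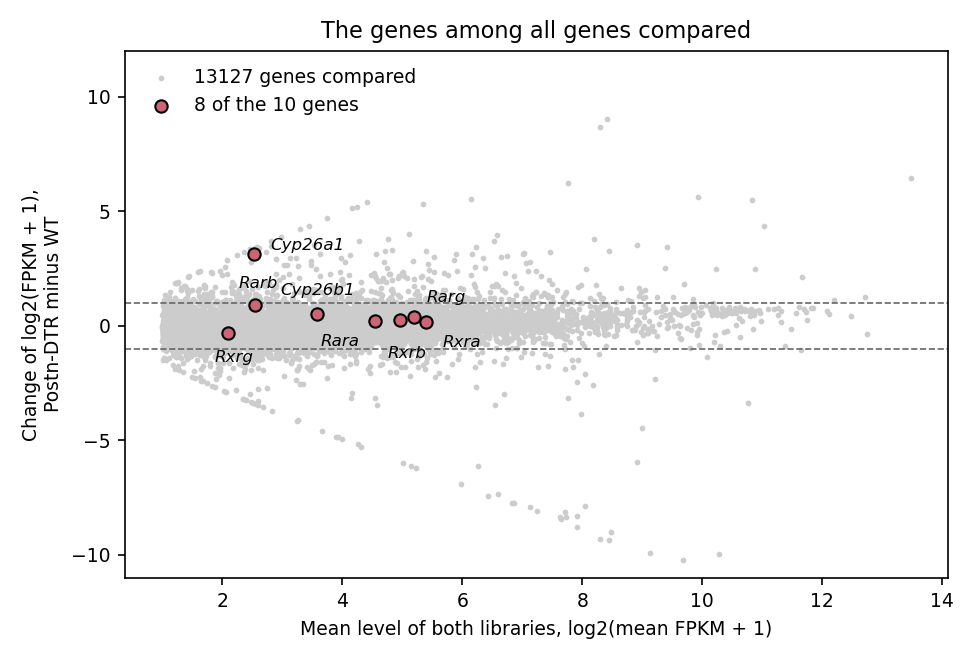
Change of log2(FPKM + 1) from WT to Postn-DTR against the mean level of both libraries, log2(mean FPKM + 1), for 13127 genes compared (grey) and the 8 genes above the minimum (red), with dashed lines at the 2-fold threshold. Cyp26a1, at 3.12, lies above the upper dashed line, and the other 7 lie between the dashed lines.

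The cofactors through which RAR and RXR act on transcription stayed within 2-fold. Of 9 corepressor genes 8 were compared and 0 passed the threshold in either direction, with a median change of 0.06. Gps2 was at 43.9 FPKM in WT and 52.4 in Postn-DTR, and Hdac3, the histone deacetylase of the NCoR complex, at 36.1 and 37.7. Of 7 coactivator genes 0 passed the threshold, with a median change of 0.10. As 3.88% of all genes compared were higher and 3.12% lower, a count of 0 in lists this short is near that share. Kat2b, a histone acetyltransferase, was at 17.7 and 16.8 FPKM, and Ncoa3, a p160 coactivator, at 16.5 and 17.8.

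Of 13 genes for receptors that share RXR as partner, 10 were compared, 2 were at least 2-fold higher, 1 was lower and the other 7 stayed within 2-fold, with a median change of 0.13. Pparg was 2.16-fold lower (59.1 FPKM in WT and 27.3 in Postn-DTR). Vdr, the vitamin D receptor, was 4.05-fold higher (1.43 and 5.78) and Nr4a1, an immediate early receptor, 2.48-fold higher (15.6 and 38.6). Nr1h2, which encodes LXRβ, was at 52.6 and 64.8. The call of Nr4a1 was lost with acinar genes removed and equal totals (change 0.94), and those of Vdr (0.75) and Pparg (-0.99) with a pseudocount of 5. In WT the level of Pparg was above that of Rxra, and in Postn-DTR below it.

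Genes that supply retinoids and make retinoic acid also had no common direction. Of 11 genes 9 were compared, 1 was higher and 2 were lower by 2-fold, with a median change of 0.32. Stra6, the membrane receptor for retinol-binding protein, was 2.35-fold higher (7.43 and 17.5). This call was lost with acinar genes removed and equal totals (change 0.84) and with a pseudocount of 5 (0.85). Rbp4, the carrier of retinol in blood, was 3.25-fold lower (155.4 and 47.8), and Adh1, an alcohol dehydrogenase that oxidizes retinol, 2.04-fold lower (56.6 and 27.7), the latter within 2-fold with a pseudocount of 5 (change -0.91). Dhrs3, which turns retinaldehyde back to retinol, was at 110.5 and 143.7. Aldh1a2, for which the FRCs are named, was at 85.5 and 63.3.

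Of 20 genes known to respond to retinoic acid other than the 10 genes above, 14 were compared, 2 were at least 2-fold higher and 0 lower, with a median change of 0.24. The higher ones were Stra6 and Cd38, an ectoenzyme of leukocytes (25.4 and 59.3 FPKM). The most abundant were Rarres2, the chemerin gene, at 366.7 and 285.8, and Tgm2, a transglutaminase, at 183.4 and 179.1. With acinar genes removed and equal totals, 0 were higher and 1 was lower. Under that setting 310 of all 13152 genes compared were higher and 773 lower, with a median change of -0.27. Windows were available for 13 of the 20, and none held a DR5. Stra6, Dhrs3 and Lrat each belong to more than one of these lists. Among other P450 genes linked to retinoic acid, Cyp1b1, which can act on retinol, was 2.29-fold higher (45.9 and 105.1), a call that was lost with acinar genes removed and equal totals (change 0.86). Por, the electron donor of microsomal P450s including CYP26, was at 120.0 and 228.9.

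**Figure D5:**
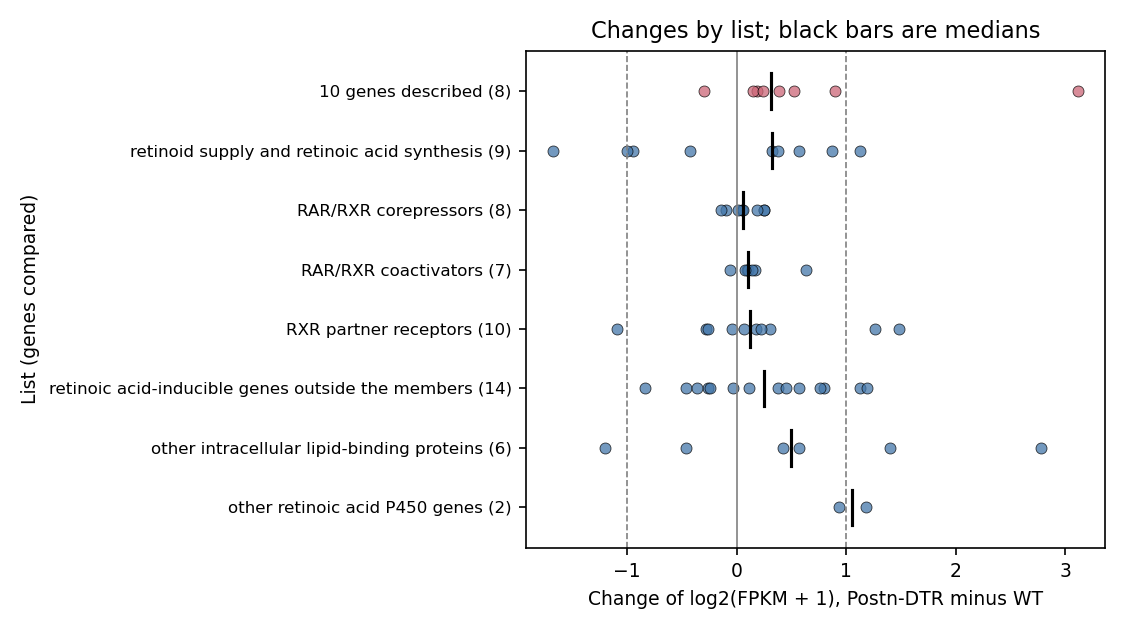
Change of log2(FPKM + 1) from WT to Postn-DTR of each gene compared (points) in the 10 genes described and in 7 related lists, with the number compared in brackets, black bars at the medians and dashed lines at the 2-fold threshold. Corepressors and coactivators cluster near 0 with medians of 0.06 and 0.10, and Cyp26a1 is the rightmost point of the plot.

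Other features of the libraries moved with the comparison. Postn was at 58.3 FPKM in WT and 16.2 in Postn-DTR, 3.61-fold lower. Since 1 Postn allele carries the cassette, the targeted allele and loss of cells cannot be told apart in this value. Markers of macrophages were higher in 6 of 6 genes, with 3 past 2-fold and a summed FPKM of 2836 and 4576, and those of neutrophils in 4 of 4, with 2 past 2-fold and a sum of 345.9 and 676.4. T cell markers were lower in 5 of 5 genes (sum 60.5 and 24.5) and B cell markers in 4 of 4 (305.0 and 224.4), none of them at 0. The other omental lists were mixed in direction. Fibroblast markers summed to 731.8 and 466.6, with 2 genes higher and 2 lower. Mesothelial markers summed to 363.5 and 342.1, also with 2 higher and 2 lower. Endothelial markers summed to 186.8 and 173.1 and adipocyte markers to 1812 and 1437, each with 1 higher and 3 lower. Pancreatic acinar markers, foreign to omentum, were lower in 6 of 6 genes and summed to 5480 and 16.8. The part of these differences in the values of the 10 genes was not tested. Cyp26a1 is abundant in liver and Rxrg in muscle. The 5 hepatocyte markers summed to 3.75 and 2.27 FPKM with Fgb at 0 in both libraries, and the 4 skeletal muscle markers to 2.46 and 2.28 with Myh4 at 0 in both. The 3 keratinocyte markers, for skin where Rarg is abundant, summed to 0.616 and 0.511, with Krt5 at 0 in both. Whether any of these tissues added to the values of the 10 genes was not tested.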

How the data were processed

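Total RNA of whole omentum was made into stranded, poly(A)-selected libraries, 1 for WT and 1 for Postn-DTR. The authors deposited FPKM per gene symbol. The submitters' processing notes name TopHat2 2.1.1, Bowtie2 2.2.8, SAMtools 0.1.18, Cuffdiff 2.2.1 and mm10, and the annotation was not given in the sources used here. Groups came from the genotype labels. The 10 genes, the gene lists and the motifs were chosen with earlier results of these data known. All 10 genes are reported. From each pathway list, genes past 2-fold and the 2 with the highest WT FPKM are named, and marker lists are given by sums and counts; Aldh1a2 and Cyp26c1 were added for their role and Top2b for its overlap. Changes of log2(FPKM + 1) were computed in Python 3.11.15 (numpy 2.4.6, scipy 1.17.1) for genes whose mean FPKM reached 1, and called at 2-fold. No test was run, since each genotype has 1 library. Among 723 genes above 0 and under 0.1 FPKM in both libraries, 174 shared the same ratio, 0.967 (Postn-DTR over WT). Lengths of single-transcript genes in GENCODE M21 (GRCm38) then gave denominators of 23300000 and 24100000 fragments, with transcripts shortened by 204 bases. With these, 74.4% and 72.6% of low values fell within 0.05 of a whole read, in the same data that set the denominators. Estimated reads are approximate, since the annotation may differ from that of the authors. The call and the depth estimate were tested on simulated data. Promoters were from RefSeq. Protein sequences were not used here, and 1 gene of the lists is counted but not reported by name.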

Additional observations from a re-analysis of the deposited data

How the results depend on the processing

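Results were recomputed under 9 alternatives. Of the 10 genes 1 was higher and 0 lower, with log2 changes of 3.12 for Cyp26a1 and 0.90 for Rarb. With a pseudocount of 0.1, 2 of the 10 genes were higher (Cyp26a1 and Rarb), Cyp26a1 changed by 5.02, and 643 of all genes were lower in place of 410. With a pseudocount of 5, Cyp26a1 changed by 1.46 and Rarb by 0.53, 287 of all genes were higher in place of 509 and 168 lower; RXR partners had 1 higher and 0 lower, lipid-binding proteins 1 higher, retinoic acid-inducible genes 1 higher, and supply and synthesis 0 higher and 1 lower. With a mean FPKM of at least 10, 0 of the 10 genes were higher because Cyp26a1 was left out, 303 of all genes were higher and 173 lower, and RXR partners and lipid-binding proteins each had 1 higher. With acinar markers removed and equal totals, the median of all genes compared moved from 0.02 to -0.27, Rarb changed by 0.64, 310 of all genes were higher and 773 lower, RXR partners had 1 higher, the other P450 genes and supply and synthesis 0 higher, and inducible genes 0 higher and 1 lower. At 1.5-fold, 2 of the 10 genes, 1294 of all genes, 1 coactivator, 2 other P450 genes, 4 inducible genes and 2 supply genes were higher, and 1160 of all genes and 1 inducible gene lower. At 3-fold, 199 of all genes were higher and 153 lower, RXR partners had 0 higher and 0 lower, lipid-binding proteins 1 higher and 0 lower, other P450 and inducible genes 0 higher, and supply genes 0 higher and 1 lower. Stricter filters and thresholds lower counts by construction. Other shifts were not traced: the cause was not tested. No filter on low values, an equal 75th percentile and centring on the median moved no count by over 1.5 times. Cyp26a1 was higher under all 6 settings that gave a change. No paired analysis was possible because each genotype has 1 library. Depth limits Crabp1 and Crabp2, and the 7 WT reads of Cyp26a1 limit its ratio.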

Other observations

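The genes around the CYP26 pair and Rarb, chosen after the changes of Cyp26a1 and Rarb were known, mostly stayed within 2-fold. Of the 8 nearest protein-coding genes listed around Cyp26a1, 6 stayed within 2-fold, 0 were higher and 1 was lower. On the side of Cyp26c1, Exoc6, an exocyst subunit, was at 9.70 FPKM in WT and 10.6 in Postn-DTR, and Hhex, a homeobox gene, at 12.6 and 13.3. On the other side, Myof, which encodes a membrane-repair protein, was at 26.8 and 34.1. Ffar4, a receptor for long-chain fatty acids in adipocytes, was at 6.59 and 2.89, and Rbp4 at 155.4 and 47.8. All 8 nearest genes around Rarb stayed within 2-fold, with changes from -0.66 to 0.42. Most genes did so, since only 3.88% of all genes compared were higher and 3.12% lower. These counts therefore say nothing particular about either neighbourhood. The thyroid hormone receptor gene Thrb, beside Rarb, was at 2.24 and 2.68 FPKM.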
